A study of Mus musculus with 6 samples.

Results

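The AP-1 and Egr immediate early factors are 10 transcription factor genes, namely the Fos family (Fos, Fosb, Fosl1, Fosl2), the Jun family (Jun, Junb, Jund) and Egr1, Egr2 and Egr3. They were chosen by name from a count table of 54232 genes, 28552 of them with counts. The rule did not use their values, but earlier results of these data were known when they were chosen. All 10 were matched and all 10 passed the test's filter on low values. RNA-seq measured them in mouse primary uterine stromal cells of D4, the window before implantation. The WT group had 3 libraries and the Pbrm1 cKO group had 3. Pbrm1 encodes BAF180, a subunit of the PBAF form of the SWI/SNF chromatin remodeler, and the comparison asks which transcripts differ when stromal cells lack it.

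WT is the name in the labels, whereas the study describes the controls as Pbrm1 fl/fl littermates. The Pbrm1 cKO females carried the same floxed alleles with PR-IRES-cre, so deletion is limited to cells in which the progesterone receptor gene drives Cre. Mice in both groups were 8 to 12 weeks old and pseudopregnant. A preparation pooled 5 to 10 uterine horns (the labels say this of WT, the study of both groups), so a library is not 1 animal. The study calls the 3 libraries of a group biological replicates, without saying whether each came from a separate pool. P-values therefore measure the spread between libraries, not between single animals, and part of that spread may be technical. Cells of both groups were digested with collagenase for 30 min, plated in medium with 10% charcoal-stripped serum for 4 h, and given fresh medium with 10% serum 2 h before RNA was taken. No library analysed here was made without serum or directly from tissue, and all values are levels at 1 time after serum.

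AP-1 is a dimer of basic leucine zipper proteins. FOS proteins bind DNA with a JUN partner, and JUN proteins can also pair with each other. EGR proteins are zinc finger factors that bind GC-rich sites and induce their own corepressor NAB2. Growth factors, serum and, in the uterus, estrogen switch on many of these genes within minutes through kinases acting on factors already present, and most of the transcripts are then quickly degraded. FOS, FOSB, EGR1, EGR2 and EGR3 are among those known for sharp, brief peaks, while FOSL2 and JUND are known for steadier expression.

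Library totals ran from 13253575 to 18338667 counts, and replicates differed by 4.16 to 9.15 times counting noise between WT pairs and by 1.57 to 2.72 times between Pbrm1 cKO pairs. Pbrm1 transcripts had normalized counts of 1354, 1385 and 1677 in WT and 397, 459 and 451 in Pbrm1 cKO (log2 fold change -1.76, SE 0.13, adjusted p = 5.19e-40). The stromal list was abundant in every library (8338 to 9867 CPM, counts scaled to library size, in WT and 7092 to 7600 in Pbrm1 cKO), with 7 of 12 markers lower and 1 higher. The leukocyte list stood apart. Of 15 leukocyte markers tested 14 were higher and 0 lower, and their summed level was 303 to 687 CPM in WT and 2923 to 3078 CPM in Pbrm1 cKO, while the T cell marker Cd3e and the NK cell marker Nkg7 were near 0. Epithelial markers summed to 130 to 232 CPM in WT and 240 to 255 in Pbrm1 cKO (3 of 11 higher), endothelial markers to 130 to 373 and 129 to 142 (4 of 12 lower, 1 higher), and smooth muscle markers to 2523 to 2770 and 2571 to 2734 (5 of 10 lower). The count of lower endothelial markers was 10 without WT replicate 1 and 1 without any other library, that of higher stromal markers was 2 when WT replicate 1 was left out and 0 when WT replicate 2 or Pbrm1 cKO replicate 1 or 2 was, and 1 smooth muscle marker was higher without WT replicate 3. In these bulk libraries fewer cells of a type and less RNA per cell cannot be told apart.

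Of the 10 members, 6 rose, 1 fell and 3 did not pass the test at an adjusted p of 0.05 (DESeq2). Fosb, Egr1 and Egr2 rose 2.15- to 2.64-fold, Jun, Fosl1 and Junb rose 1.26- to 1.56-fold, and Jund fell to 73.4% of its WT level. Fos, Fosl2 and Egr3 were not called. Over all 17474 genes tested, 15.9% were called higher and 15.2% lower. The groups did not overlap for 7 members, 6 of them higher in Pbrm1 cKO, whereas 24.0% of all genes had every Pbrm1 cKO library above every WT library and 24.6% had the reverse. For 3 members the rise was at least 2-fold, a size that 5.83% of all genes passed with a call. The median log2 fold change was 0.46 over the members and -0.00 over all genes tested.

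**Figure D1:**
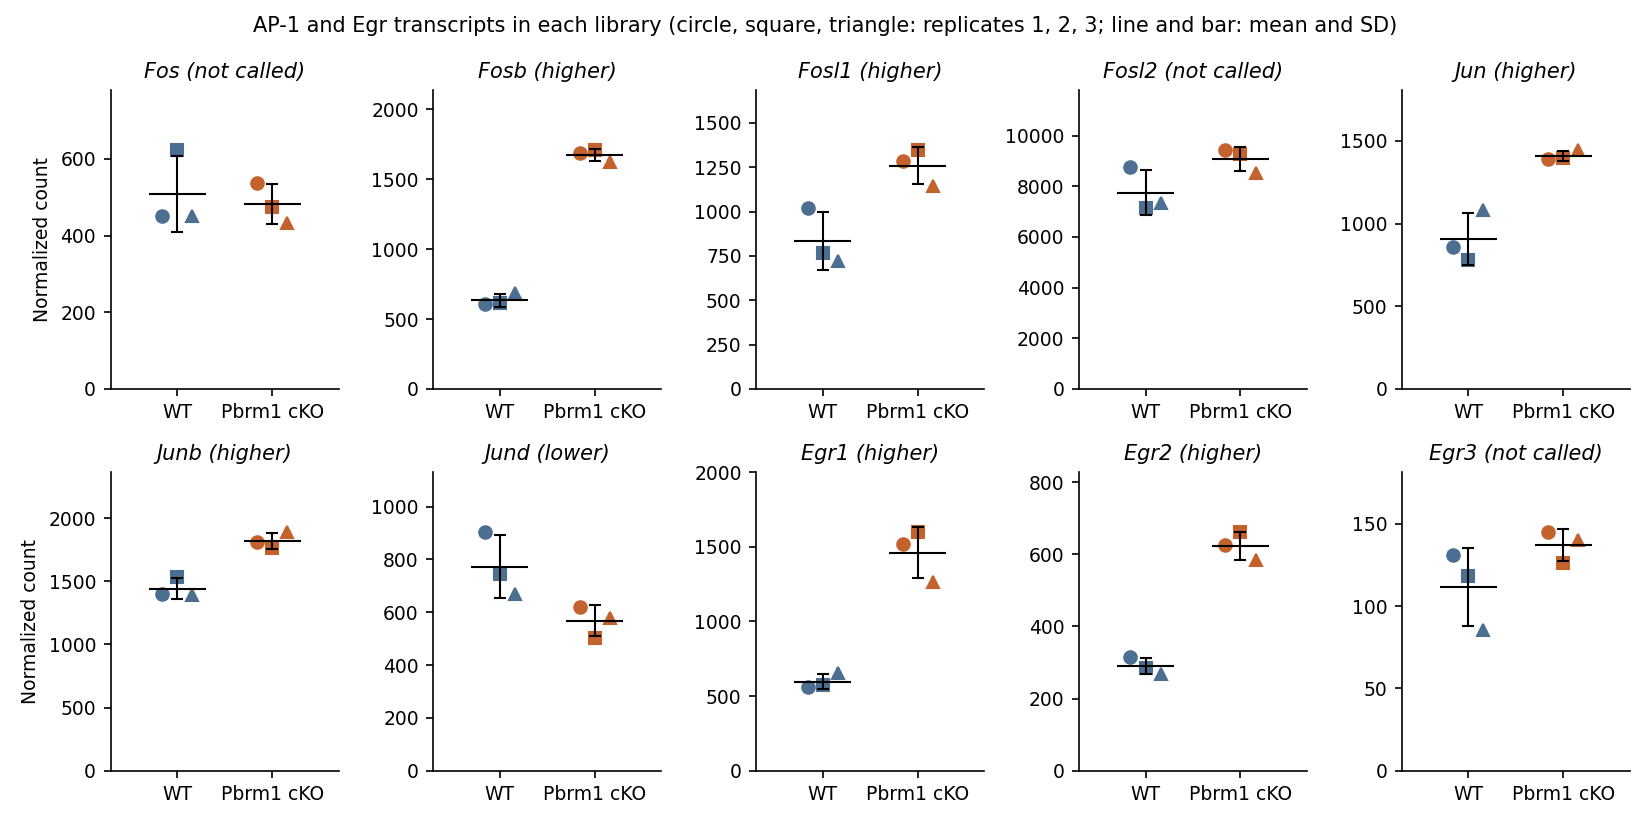
Normalized count (y axis, from 0, on a scale of its own per gene) of each member in the 3 WT and 3 Pbrm1 cKO libraries, with the mean and SD as a line and bar and the symbol giving the replicate number. The groups are apart for 7 genes and overlap for Fos, Fosl2 and Egr3.

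Among the Fos family, Fosb had the largest fold change. FOSB is a JUN partner with a transactivation domain like that of FOS. Its normalized counts were 604, 612 and 686 in WT and 1685, 1708 and 1625 in Pbrm1 cKO. The lowest Pbrm1 cKO library was 2.37 times the highest WT library, and the replicates of each group lay close together. The log2 fold change was 1.40 (SE 0.10, 95% interval 1.2 to 1.6, adjusted p = 1.74e-40), a 2.64-fold rise from 634 ± 45.6 to 1673 ± 42.9 (SD, n = 3).

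Fos itself, the gene that gave the family its name, had normalized counts of 451, 623 and 450 in WT and 537, 475 and 433 in Pbrm1 cKO. The groups overlapped, and the highest library of all was WT replicate 2. The difference was -0.08 on the log2 scale (SE 0.16, adjusted p = 0.792), with an interval of -0.40 to 0.25 that leaves out a rise of the size seen for Fosb. Its sign rested on WT replicate 2, without which the value was 0.09 (adjusted p = 0.734).

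Fosl1 encodes FRA-1 and Fosl2 encodes FRA-2, AP-1 subunits that lack the strong transactivation domain of FOS and FOSB. Normalized counts of Fosl1 were 1022, 765 and 720 in WT and 1285, 1346 and 1146 in Pbrm1 cKO. WT replicate 1 was the highest of its group and still lay below every Pbrm1 cKO library. Fosl1 rose by a log2 fold change of 0.59 (SE 0.15, interval 0.30 to 0.88, adjusted p = 0.000484). Fosl2 had normalized counts of 8756, 7153 and 7337 in WT and 9423, 9270 and 8534 in Pbrm1 cKO. WT replicate 1 was above Pbrm1 cKO replicate 3, so the groups overlapped. The Fosl2 difference was 0.23 (SE 0.11, interval 0.02 to 0.44, adjusted p = 0.0907), and without WT replicate 1 it was 0.32 and passed the test (adjusted p = 0.000311). With the trend of fold change on gene length removed it was 0.09 (adjusted p = 0.517).

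The Jun family moved in both directions. Jun encodes the main DNA-binding partner of FOS proteins. Its normalized counts were 856, 777 and 1082 in WT and 1389, 1397 and 1444 in Pbrm1 cKO. The Pbrm1 cKO libraries were almost level with each other, and WT replicate 3 came nearest to them. Jun rose by 0.64 on the log2 scale (SE 0.13, interval 0.38 to 0.90, adjusted p = 1.87e-05).

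Junb encodes a partner that is often a weaker activator than JUN. It had normalized counts of 1396, 1536 and 1390 in WT and 1808, 1763 and 1890 in Pbrm1 cKO. The groups were apart by a small margin, the lowest Pbrm1 cKO library being 1.15 times the highest WT library. The rise was 0.34 (SE 0.09, interval 0.15 to 0.52, adjusted p = 0.00188).

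Jund encodes the Jun protein that is least dependent on serum. It was the 1 member that fell. Its normalized counts were 904, 746 and 668 in WT and 620, 504 and 579 in Pbrm1 cKO. All Pbrm1 cKO libraries were below all WT libraries, though WT replicate 3 was close to Pbrm1 cKO replicate 1. It fell by 0.45 on the log2 scale (SE 0.15, interval -0.74 to -0.16, adjusted p = 0.0107). The call was lost without Pbrm1 cKO replicate 2 (-0.37, adjusted p = 0.117), without Pbrm1 cKO replicate 3 (-0.46, adjusted p = 0.05) and with the trend of fold change on gene length removed (-0.35, adjusted p = 0.0704).

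In the Egr family, Egr1 and Egr2 rose and Egr3 was not called. Egr1 (chr18:34859823-34864984 on GRCm38, + strand, ENSMUSG00000038418), the best known of these serum-induced zinc finger factors, had normalized counts of 559, 575 and 655 in WT and 1517, 1600 and 1267 in Pbrm1 cKO. Pbrm1 cKO replicate 3 was the lowest of its group and was still 1.93 times the highest WT library. The log2 fold change was 1.29 (SE 0.13, interval 1.04 to 1.55, adjusted p = 9.79e-22), a rise of 2.45-fold from 596 ± 51.5 to 1461 ± 173 (SD, n = 3).

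Egr2, known as Krox20 for its part in hindbrain and myelin formation, had 314, 286 and 269 in WT and 625, 662 and 583 in Pbrm1 cKO. Every Pbrm1 cKO library was at least 1.85 times every WT library. Egr2 rose by 1.10 on the log2 scale (SE 0.13, interval 0.85 to 1.36, adjusted p = 7.78e-16). Egr3, a relative known from muscle spindles and lymphocytes, had 131, 118 and 85.4 in WT and 145, 126 and 140 in Pbrm1 cKO. The groups overlapped because WT replicate 1 exceeded Pbrm1 cKO replicate 2. The Egr3 difference was 0.30 (SE 0.22, interval -0.13 to 0.73, adjusted p = 0.339), an interval that holds both no change and a rise of the size of Jun. The family's other gene, Egr4, was at or under the floor of 3 counts and was not tested.

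**Figure D2:**
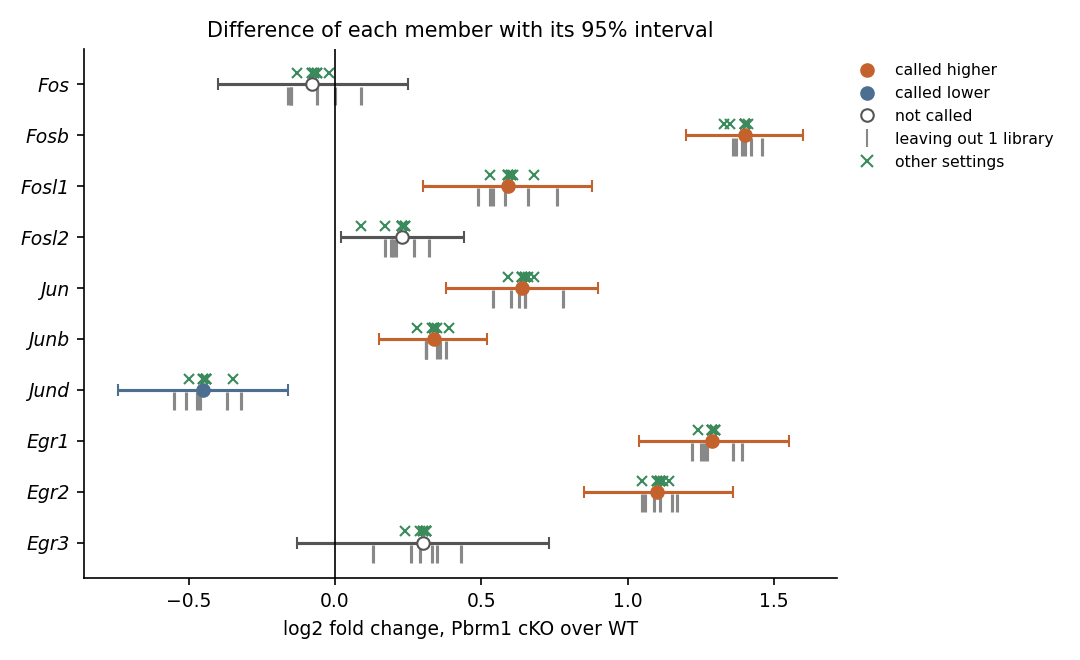
The log2 fold change of each member (x axis, Pbrm1 cKO over WT) with its 95% interval. Grey ticks leave out 1 library, green crosses use other settings, filled circles passed the test and open circles did not. All ticks and crosses of the 6 genes called higher lie right of 0, those of Jund lie left of 0, and those of Fos lie on both sides.

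The members called higher kept their call under all 14 alternatives, and the count of members higher was 6 or 7. It was 7 without WT replicate 1, the library with the lowest leukocyte sum, through the call of Fosl2. The leukocyte sum in that library was 303 CPM against 687 and 663 CPM in the other WT libraries, while Fosb was at 604 there against 612 and 686, Egr1 at 559 against 575 and 655, and Egr2 at 314 against 286 and 269. Across groups the leukocyte sum and these genes were both higher in Pbrm1 cKO, and the part of leukocyte RNA in the members' differences was not tested. Replicate spread also differed. The coefficient of variation of the members was 5.73 to 21.2% in WT and 2.11 to 11.9% in Pbrm1 cKO, lower in Pbrm1 cKO for 9 of 10 members with Egr1 the exception. The closer agreement of Pbrm1 cKO replicates held over all genes too, as given above.

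Levels of different genes were compared per length, as CPM per kb of counted exon. In WT the order from the top was Fosl2 (54.2), Junb (42.4), Fosl1 (33.1), Jund (31.4), Jun (19.2), Fos (14.6), Egr1 (9.01), Fosb (6.88), Egr2 (5.78) and Egr3 (1.71). Fosl1 and Jund overlapped between libraries there, as did Jun and Fos. In Pbrm1 cKO the order was Fosl2 (64.3), Junb (54.3), Fosl1 (50.5), Jun (30.3), Jund (23.3), Egr1 (22.3), Fosb (18.4), Fos (14.0), Egr2 (12.6) and Egr3 (2.13). The overlapping neighbours were Junb with Fosl1, Jund with Egr1, and Fos with Egr2. Fosl2 ranked 892 of 17474 genes in WT and 700 in Pbrm1 cKO, and was the most abundant member in both groups. Fosb moved from rank 5715 to 2789 and Egr1 from 4779 to 2303, while Egr3 stayed near 10015 and 9551. Together the members took 0.0937% of counts in WT and 0.127% in Pbrm1 cKO.

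Per length, the order of 3 of the 45 pairs of members was reversed in every library. The ratio of Fosb to Fos, in level per length, was 0.504, 0.370 and 0.575 in WT and 1.18, 1.35 and 1.41 in Pbrm1 cKO. Egr1 over Fos went from 0.633 ± 0.141 to 1.59 ± 0.150, and Jun over Jund from 0.629 ± 0.191 to 1.31 ± 0.138 (SD, n = 3). On this scale Fos was above Fosb and Egr1 and Jund was above Jun in WT, and in Pbrm1 cKO each of these was the other way around. These reversals depended on the scaling to length. In raw counts Fosb (565 and 635) and Egr1 (523 and 606) already exceeded Fos (422 and 416) in WT replicates 1 and 3. Only in WT replicate 2 was Fos above both (561 against 551 and 518). Jun exceeded Jund in WT replicates 2 and 3 (700 and 1001 against 672 and 618) but not in WT replicate 1 (801 against 846).

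**Figure D3:**
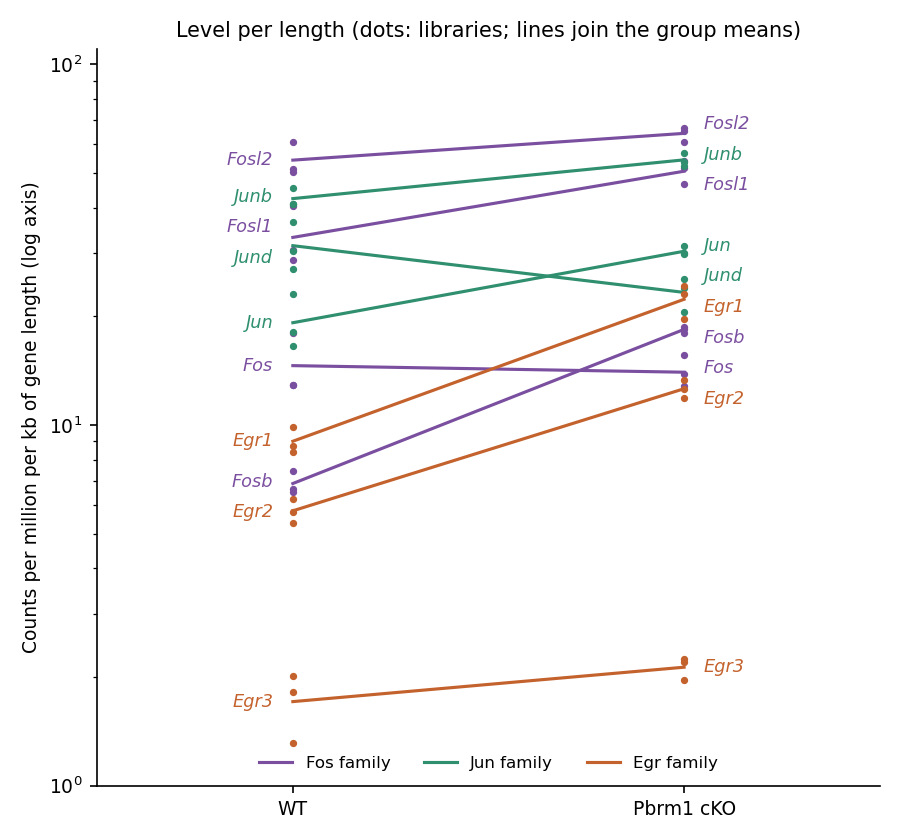
Level per length (y axis, log scale, CPM per kb) of each member in WT and Pbrm1 cKO, with a dot per library and a line joining the group means, coloured by family. Lines of Fosb and Egr1 cross that of Fos, and the line of Jun crosses that of Jund.

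Summed per length, the Fos family was at 109 ± 10.7 in WT and 147 ± 7.79 in Pbrm1 cKO, a ratio of 1.35. The Jun family was at 93.0 ± 2.38 and 108 ± 4.77 (1.16), and the Egr family at 16.5 ± 0.212 and 37.0 ± 3.08 (2.25; SD, n = 3 each). The groups did not overlap for any of the 3 sums, and the two-sided exact permutation p was 0.1 for each, the smallest that 3 against 3 libraries can give, so this test cannot pass 0.05. The ratio of the Egr sum was the highest and that of the Jun sum, which adds a lower Jund to higher Jun and Junb, the lowest; whether the ratios differ was not tested.

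The share of each member in its family was compared next, with no share able to pass 0.05 in this design. Within the Fos family the share of Fosb was 6.38 ± 1.01% (SD) in the WT libraries and 12.5 ± 0.474% in the Pbrm1 cKO libraries. Fosl1 went from 30.3 to 34.3%, while Fos went from 13.6 to 9.53% and Fosl2 from 49.8 to 43.7%. A fall of a share is not a fall of the gene, since the mean level of Fosl2 was higher in Pbrm1 cKO. Within the Jun family the share of Jund was 38.3, 32.9 and 29.8% in WT and 23.3, 20.1 and 21.4% in Pbrm1 cKO, that of Jun went from 20.7 to 28.1%, and that of Junb from 45.6 to 50.3%. In the Egr family the share of Egr3 went from 10.4 to 5.80%, while Egr1 (54.6 and 60.2%) and Egr2 (35.0 and 34.0%) overlapped between groups. The groups were apart for 8 of 10 shares, each at the smallest exact permutation p of 0.1 (0.125 after Benjamini-Hochberg adjustment over the 10), and p was 0.2 for Egr1 and 0.7 for Egr2. Without scaling to length Junb overlapped too (46.2 and 47.9%, exact permutation p = 0.4), and the shares of Fos (5.29 and 3.85%) and Fosl1 (8.54 and 10.1%) were lower and nearer to each other between groups, with Fosl2 at 79.6 and 72.7%.

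**Figure D4:**
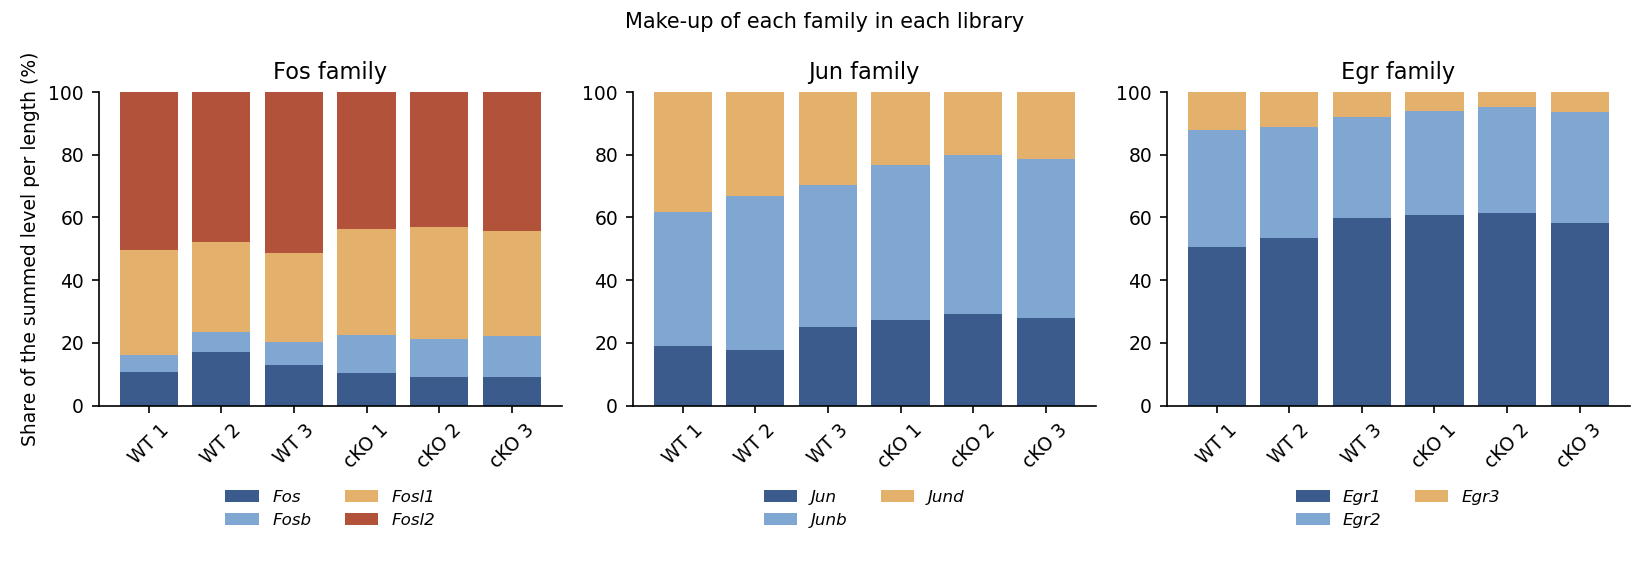
Share of each member in its family's summed level per length (y axis, %), stacked to 100% in each of the 6 libraries. Fosb and Jun take more of their families and Jund and Egr3 less in every Pbrm1 cKO library than in every WT library.

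The counted genes lie, on GRCm38, at chr12:85473890-85477273 (Fos, ENSMUSG00000021250, + strand), chr7:19302696-19310051 (Fosb, ENSMUSG00000003545, -), chr19:5447703-5455945 (Fosl1, ENSMUSG00000024912, +), chr5:32135801-32157842 (Fosl2, ENSMUSG00000029135, +), chr4:95049034-95052222 (Jun, ENSMUSG00000052684, -), chr8:84974484-84978718 (Junb, ENSMUSG00000052837, -), chr8:70698949-70700616 (Jund, ENSMUSG00000071076, +), chr10:67535475-67542188 (Egr2, ENSMUSG00000037868, +) and chr14:70077203-70082614 (Egr3, ENSMUSG00000033730, +). Jun and Jund are single-exon genes, with 1 exon block each. Junb overlaps Prdx2 on the opposite strand, where 1612 to 2460 counts per library were recorded, and Jun and Jund overlap opposite-strand genes with 4 to 10 counts. Counting used the strand, which keeps such pairs apart.

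Promoter windows, 250 bases before to 50 after a transcription start, were read from RefSeq (GRCm38.p6) for 7 of the 10 members. Windows for Fosl1, Egr1 and Egr3 are not shown. Those of the risen genes Fosb, Jun, Junb and Egr2 and of Fos, which did not pass the test, are printed 5′ to 3′ on the gene's own strand, with matches to searched motifs in capitals.
Fos, chr12:85473640-85473939, + strand: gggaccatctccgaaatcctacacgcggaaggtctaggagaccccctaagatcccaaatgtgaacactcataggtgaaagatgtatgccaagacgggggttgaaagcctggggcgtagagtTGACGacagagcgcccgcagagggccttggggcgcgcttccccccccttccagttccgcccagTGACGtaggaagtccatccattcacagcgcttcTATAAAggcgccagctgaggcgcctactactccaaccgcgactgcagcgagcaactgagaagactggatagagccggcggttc
Fosb, chr7:19309996-19310295, - strand: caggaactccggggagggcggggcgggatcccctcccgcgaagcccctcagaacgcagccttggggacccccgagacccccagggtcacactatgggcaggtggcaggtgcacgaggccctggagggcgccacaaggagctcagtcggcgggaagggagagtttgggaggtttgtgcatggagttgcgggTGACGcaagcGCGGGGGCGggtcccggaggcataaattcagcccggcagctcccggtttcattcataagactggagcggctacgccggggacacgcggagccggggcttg
Jun, chr4:95052173-95052472, - strand: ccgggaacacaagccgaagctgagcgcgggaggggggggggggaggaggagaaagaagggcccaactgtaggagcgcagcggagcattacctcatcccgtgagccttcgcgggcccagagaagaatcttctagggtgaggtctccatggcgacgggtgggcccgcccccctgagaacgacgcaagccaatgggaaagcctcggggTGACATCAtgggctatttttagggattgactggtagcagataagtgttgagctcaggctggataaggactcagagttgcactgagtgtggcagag
Junb, chr8:84978699-84978998, - strand: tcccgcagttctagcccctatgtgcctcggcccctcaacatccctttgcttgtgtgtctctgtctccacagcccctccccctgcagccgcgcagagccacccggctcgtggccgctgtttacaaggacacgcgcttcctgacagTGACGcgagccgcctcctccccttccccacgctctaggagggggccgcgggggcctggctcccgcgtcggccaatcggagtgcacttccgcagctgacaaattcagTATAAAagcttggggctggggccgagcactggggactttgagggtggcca
Egr2, chr10:67537619-67537918, + strand: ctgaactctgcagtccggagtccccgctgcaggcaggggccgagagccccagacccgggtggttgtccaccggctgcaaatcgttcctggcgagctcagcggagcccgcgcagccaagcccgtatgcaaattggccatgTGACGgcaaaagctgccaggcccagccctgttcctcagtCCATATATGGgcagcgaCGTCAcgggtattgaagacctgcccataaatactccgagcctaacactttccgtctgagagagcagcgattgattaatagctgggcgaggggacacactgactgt

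The motifs were searched on both strands. TGACG is the core of the cAMP response element (CRE), TGACNTCA an AP-1 or CRE site, TGANTCA the classical AP-1 site, GCGNGGGCG the Egr site and TATAAA the TATA box, and the CArG box, which SRF binds, was searched by its consensus. TGACNTCA contains TGACG where N is G. In all 32841 windows of the table these were found in 20.8% (TGACG), 8.83% (TGACNTCA), 7.81% (TGANTCA), 5.55% (GCGNGGGCG), 13.6% (TATAAA) and 1.63% (CArG box). Counting the first transcribed base as 0, the Fos window held TGACG from -129 to -125 and from -66 to -62 and TATAAA from -33 to -28. The Fosb window held TGACG from -60 to -56 and an Egr site from -50 to -42. The Jun window held TGACATCA from -45 to -38. The Junb window, whose start lies at -30 from that of the counted gene, held TGACG from -106 to -102 and TATAAA from 0 to 5. The Egr2 window held a CArG box from -72 to -63 between CRE cores from -111 to -107 and from -55 to -51, and its start lies 2394 bases into the counted gene. Of the 5 windows listed for Egr2, 3 overlap and share this CArG box, 1 holds another, and the window nearest the start of the counted gene, 24 bases from it, held none of the motifs. An Egr site was also in the Fosl2 window (from -79 to -71), whose start lies 671 bases into the counted gene. The Jund window, whose start lies at -1210 from that of the counted gene, held none of the motifs. TGANTCA was in none of the members' windows. Fosb, which rose, and Fos, which was not called, both carry TGACG. A match describes letters and does not show binding.

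Other immediate early genes were mostly higher among those called. Of 34 listed, 33 were tested, 17 rose (51.5%) and 4 fell (12.1%), with a median log2 fold change of 0.37. Over all genes tested 15.9% rose and 15.2% fell. Atf3, a bZIP factor induced by stress that can also pair with JUN, had normalized counts of 192, 274 and 232 in WT and 602, 603 and 617 in Pbrm1 cKO, and rose by 1.38 (SE 0.15, adjusted p = 1.95e-18). Ier2 had 270, 228 and 576 in WT and 725, 724 and 732 in Pbrm1 cKO, so that WT replicate 3 lay nearest to Pbrm1 cKO. Its difference of 1.02 (SE 0.41, adjusted p = 0.045) was no longer called without WT replicate 1 or without any 1 Pbrm1 cKO library (0.85 and 1.02 to 1.03, adjusted p 0.148 to 0.157), with upper-quartile scaling (0.0506) or without DESeq2's filter on low means (0.0732), whereas without WT replicate 3 it was 1.54 (adjusted p = 3.03e-27, the lowest over the alternatives). Dusp1, a phosphatase that switches off MAP kinases, went the other way, with 1605, 1615 and 1371 in WT and 790, 665 and 708 in Pbrm1 cKO (log2 fold change -1.09, SE 0.12, adjusted p = 3.79e-18). The other genes that fell, named after their values were seen, were Ptgs2, the prostaglandin synthase COX-2 (-0.66), Ier5l (-0.85) and Tiparp (-0.54). The count of risen genes was 7 without Pbrm1 cKO replicate 1 and 9 without Pbrm1 cKO replicate 2.

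Of the 12 bZIP dimer partners tested 5 rose (41.7%) and 1 fell (8.33%), beside 15.9% and 15.2% of all genes tested. Their median was 0.37. Atf3, described above, was 1 of those that rose. Batf, a partner of JUN proteins known from lymphocytes, had 220, 245 and 241 in WT and 50.3, 72.7 and 65.7 in Pbrm1 cKO and fell by 1.90 on the log2 scale (SE 0.20, adjusted p = 5.82e-19). Batf was thus lower in the group in which the leukocyte sum was higher.

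Of 19 kinases, SRF partners and NAB corepressors that act on or with these genes 3 rose (15.8%) and 2 fell (10.5%), beside 15.9% and 15.2% of all genes tested, with a median of 0.06. Mapk3, which encodes ERK1, had normalized counts of 516, 580 and 822 in WT and 1310, 1212 and 1116 in Pbrm1 cKO and rose by 0.92 (SE 0.17, adjusted p = 6.27e-07). Nab2, the EGR corepressor and itself an Egr target, rose by 0.51 (SE 0.11, adjusted p = 6.09e-05). The count of fallen factors was 1 without WT replicate 2 or without Pbrm1 cKO replicate 2 or 3.

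Genes known as AP-1 targets rose in 9 of 16 cases (56.2%) and fell in 1 (6.25%), beside 15.9% and 15.2% of all genes tested. Their median was 0.41. Mmp13, a collagenase with a classical AP-1 promoter, had 13.9, 24.4 and 82.2 in WT and 268, 241 and 249 in Pbrm1 cKO and rose by 2.65 (SE 0.71, adjusted p = 0.00119), a value that was 3.72 without WT replicate 3. Mmp9, a gelatinase that leukocytes also make, had 27.8, 17.8 and 29.2 in WT and 111, 82.3 and 91.0 in Pbrm1 cKO (log2 fold change 1.93, adjusted p = 1.52e-08). Ccl2, a monocyte attractant, had 327, 823 and 742 in WT and 1598, 1527 and 1680 in Pbrm1 cKO and rose by 1.34 (SE 0.39, adjusted p = 0.00314). The WT libraries varied more than the Pbrm1 cKO libraries for Mmp13 and Ccl2. The 1 gene that fell, named after its values were seen, was Areg, the growth factor amphiregulin (-1.63, adjusted p = 0.0204), whose groups overlapped and whose call was lost with edgeR, with limma, without WT replicate 2 or 3 and without Pbrm1 cKO replicate 1 or 2.

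Of 8 genes known as Egr targets 5 rose (62.5%) and 0 fell, beside 15.9% and 15.2% of all genes tested. Their median was 0.47. Pdgfa, a growth factor for mesenchymal cells, had 1268, 1152 and 1054 in WT and 2107, 1972 and 1993 in Pbrm1 cKO and rose by 0.81 (SE 0.10, adjusted p = 3.9e-13). Tgfb1 had 145, 224 and 390 in WT and 797, 807 and 712 in Pbrm1 cKO and rose by 1.61 (SE 0.41, adjusted p = 0.000651). Sphk1, which makes the lipid signal sphingosine-1-phosphate, rose by 0.52 (SE 0.09, adjusted p = 5.49e-07). Tgfb1 was lowest in WT replicate 1, where the leukocyte sum was lowest, whereas Pdgfa was highest there. Without WT replicate 1 or 3, 1 gene of this list was called lower.

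Heat shock genes encode chaperones and, like the members, are known to respond to cell isolation. Of 10 tested 1 rose (10%) and 3 fell (30%), beside 15.9% and 15.2% of all genes tested, with a median of -0.14. Hspa8, the abundant constitutive HSC70, fell from 23842 ± 1390 to 11748 ± 252 (log2 fold change -1.02, adjusted p = 2.78e-33). The stress-inducible Hspa1b went from 435 ± 50.4 to 313 ± 13.8 (-0.47, adjusted p = 0.00378), and the small heat shock gene Hspb1 rose from 2744 ± 215 to 3977 ± 73.8 (0.54, adjusted p = 1.3e-07; SD, n = 3). Without WT replicate 3, 2 heat shock genes were called higher.

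**Figure D5:**
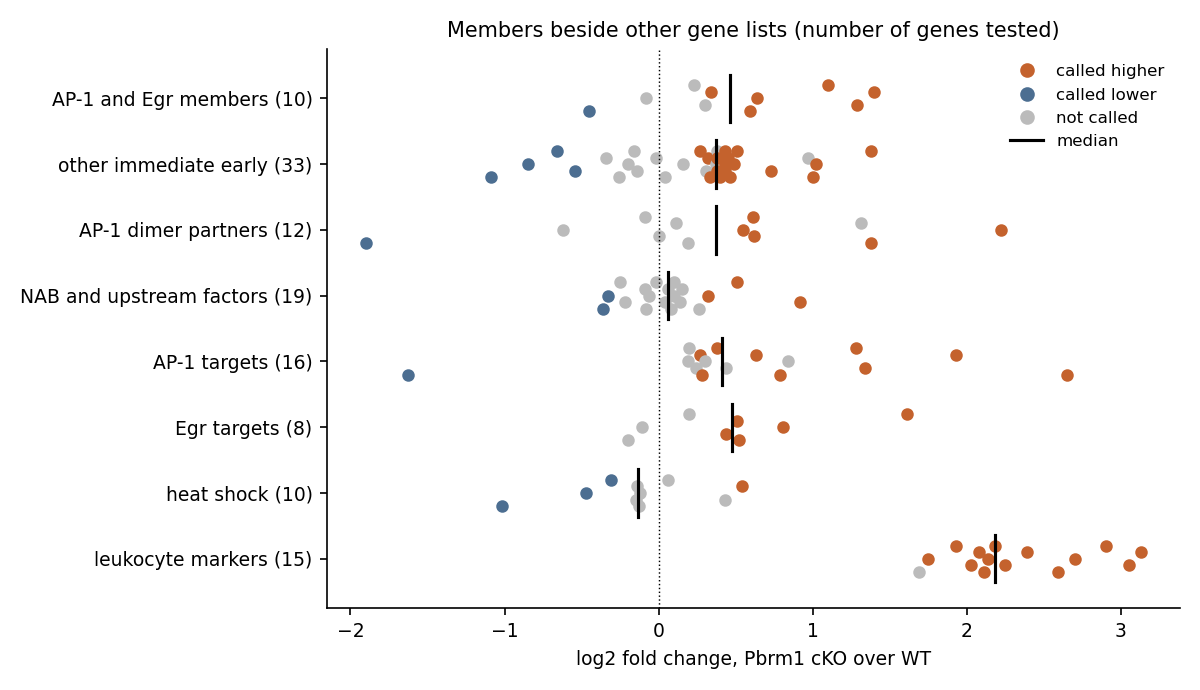
The log2 fold change (x axis) of each tested gene in the members and 7 other lists (rows, with the number of genes tested), coloured by call, with the list median as a black line. Members and most related lists have medians of 0.37 to 0.47, the upstream factors sit near 0, heat shock genes are slightly below 0 and leukocyte markers are at 2.18.

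The genes most like Egr1, Jun and Fos were sought by Pearson correlation of log2 normalized counts over the 6 libraries. The search covered 10985 genes and is a description in which the points share groups and depth. For Egr1 the nearest were Zfp704 (r = 0.9992), Hipk1 (0.9987) and Ppp1r13b (0.9974), and 928 genes exceeded 0.95. For Jun they were Mapkapk3 (0.9998), Atad2b (0.9981) and Fam118a (0.9977), with 495 genes over 0.95. For Fos, Pttg1 (0.9828) was the 1 gene over 0.95, followed by Csnk2b (0.9449) and Ccnc (0.9386). These values rank likeness across 6 points and carry no p.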

How the data were processed

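Cells were prepared and sequenced as described above. Libraries were made, per the labels, from total RNA primed with random and poly(T) primers and then depleted; the methods of the study name poly(A) selection instead, so the RNA classes captured are not settled. The authors trimmed reads with cutadapt, mapped them with HISAT2 to GRCm38 and counted them with featureCounts 1.6.4, reverse-stranded, on GENCODE release 18. The deposited values are raw counts per gene, 13253575 to 18338667 per library. By default reads with several places or genes are left out. A count of 0 allows up to 3 counts.

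All genes with counts were fitted in DESeq2 1.42.0 (R 4.3.3; Wald test, Benjamini-Hochberg, 6 libraries, group as the only term), checked on simulated data. Normalized counts are counts divided by size factors. Alternatives were edgeR 4.0.16, limma 3.58.1, other scalings and filters, a replicate block, leaving out each library and, added after seeing the data, removing the trend on gene length. Members and lists were chosen with earlier results of these data known. Unless the text says otherwise, genes named outside the members were, per list, up to 3 with the largest changes among called genes whose normalized count averaged 50 or more, and the 3 nearest to Fos, Jun and Egr1. Some genes that this rule names are not reported here.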

Additional observations from a re-analysis of the deposited data

How the results depend on the processing

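Calls for Fosb, Fosl1, Jun, Junb, Egr1 and Egr2 kept their direction and their side of the threshold under all 14 alternatives, with members called higher numbering 6 to 7 and members called lower 0 to 1 when 1 library was left out. Removing the trend on gene length gave 0 members lower, with Jund at -0.35 (adjusted p = 0.0704), Fosl2 at 0.09 (adjusted p = 0.517), Pttg1 at 0.01 and Csnk2b at 0.04. Leaving out 1 library gave ranges of -0.16 to 0.09 for Fos, 0.17 to 0.32 for Fosl2 and -0.55 to -0.32 for Jund, of -0.14 to 0.08 for Pttg1 and of -0.10 to 0.00 for Ccnc. The cause of these changes was not tested. Upper-quartile scaling made 43.8% of all calls higher (2432 higher, 3115 lower) against 51.1% in the reported fit, with a median shift of -0.058 over genes. Same-numbered libraries correlated at 0.114, -0.052 and 0.003 in their deviations from group means, so the numbers do not pair the samples. The replicate block gave 2175 genes higher and 1828 lower, 6 members higher, 1 lower, and 11 other immediate early genes higher, against 17 without the block. With 3 libraries per group, the intervals of Fosl2, Egr3 and Fos leave small changes undecided.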
